A study of Mus musculus with 6 samples.

Results

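Tropomyosins, tropomodulins and leiomodins coat the actin filament of the sarcomere or sit at its pointed end. The 10 genes described here, Tpm1, Tpm2, Tpm3, Tpm4, Tmod1, Tmod3, Tmod4, Lmod1, Lmod2 and Lmod3, were taken by symbol from a table of 31273 mouse genes, and all 10 were found. They were measured by RNA sequencing of polyadenylated RNA from left ventricles, in 3 control libraries and 3 libraries labelled as overexpressing RBM20 in cardiomyocytes. The design text describes the model as a tamoxifen-inducible RBM20 knock-in limited to cardiomyocytes, with RBM20 a splicing regulator of the heart. What drives the recombinase, the age of the mice and whether control mice received tamoxifen were not given in the sources used here. Esr1, the oestrogen receptor gene whose ligand-binding part is built into tamoxifen-inducible recombinases, read 0.234 to 0.415 TPM in control ventricles and 218, 53.0 and 199 TPM in overexpression replicates 1, 2 and 3 (limma adjusted p = 1.84e-05). Its control mean was 0.316 TPM, so it reached the mean of 1 TPM needed for testing only through the overexpression group. Where the Esr1 reads come from was not tested. The Esr1 difference follows the groups, so it cannot be told apart from that of Rbm20 in any comparison here. The control titles carry the tag cki and the overexpression titles the tag cre, so the groups were taken from the genotype labels.

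Tropomyosin is a coiled coil that lies along the actin filament and, together with troponin, sets when myosin can bind. Tropomodulins cap the pointed end of the filament and slow the exchange of actin there, whereas leiomodins bind the same end, nucleate actin and let the filament grow. The balance between the capping and the elongating proteins is known to influence thin filament length in heart muscle. Tpm1 encodes the main cardiac tropomyosin and Lmod2 the main cardiac leiomodin, Tmod1 is the tropomodulin of striated muscle and red cells, and the other members are best known from skeletal muscle, smooth muscle or the cytoskeleton of many cells.

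Expression is given as TPM, a share of all transcripts corrected for gene length. With 1 length per gene, levels can be compared between genes only roughly. GENCODE M21 lists 16 protein-coding transcripts of Tpm1 over 6485 exon bases, and 1 of Tpm4 over 2203. How far this moves the order of levels, the shares and the ratios between genes was not tested. From the step that 1 read adds to the low values, each library was estimated to hold 41600000 to 90000000 counted reads, a rough figure, since 45.3% to 54.4% of low values came within 0.02 of a whole read with the exon lengths of GENCODE M21. Rbm20 itself read 74.9 to 90.9 TPM in control ventricles, against 321, 913 and 907 TPM in overexpression replicates 1, 2 and 3. Overexpression replicate 1 also differed from the other 5 libraries in sex-linked transcripts, with Ddx3y at 88.1 TPM and Xist at 0.0172 TPM, against Ddx3y at 0 and Xist at 34.4 to 62.6 TPM. Mitochondrially encoded RNA took 48.3% to 52.0% of all TPM among control libraries and 36.7% to 41.0% among overexpression libraries. TPM share a fixed total, and the median log2 difference of the 12404 genes tested was 0.55. Values rescaled by median of ratios, for which that median was 0.01, are given beside the deposited ones. Defining cardiomyocyte markers were abundant in every library (summed TPM of 9 markers 55402 to 62804 in the control group and 48870 to 54648 in the overexpression group). Of those 9, 3 were called higher and 4 lower in deposited TPM, beside 59% and 9.09% of all genes tested. After rescaling 0 were higher and 6 lower (median log2 difference -0.85), beside 22.2% and 24% of all genes, and Tpm1, Lmod2 and Lmod3 were also called lower. The part of that shift in the members' values was not tested.

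Across the family, 5 of 10 genes rose with overexpression in deposited TPM and 0 fell (limma, adjusted p below 0.05, with 0 lower at an unadjusted p below 0.05). The 3 less abundant tropomyosin genes, Tpm2, Tpm3 and Tpm4, rose most, by 4.01-fold, 2.43-fold and 2.39-fold of mean TPM. Tmod3 and Tmod4 rose by 1.45-fold and 1.40-fold. Tpm1, Tmod1 and the 3 leiomodin genes did not pass the test. Of all genes tested, 59% were called higher and 9.09% lower, so a count of 5 higher is near the background. After rescaling, 3 members were higher (Tpm2, Tpm3 and Tpm4) and 3 lower (Tpm1, Lmod2 and Lmod3), against 22.2% of all genes higher and 24% lower. All 10 members passed the filter of a mean of 1 TPM, and each had a control mean above it.

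**Figure D1:**
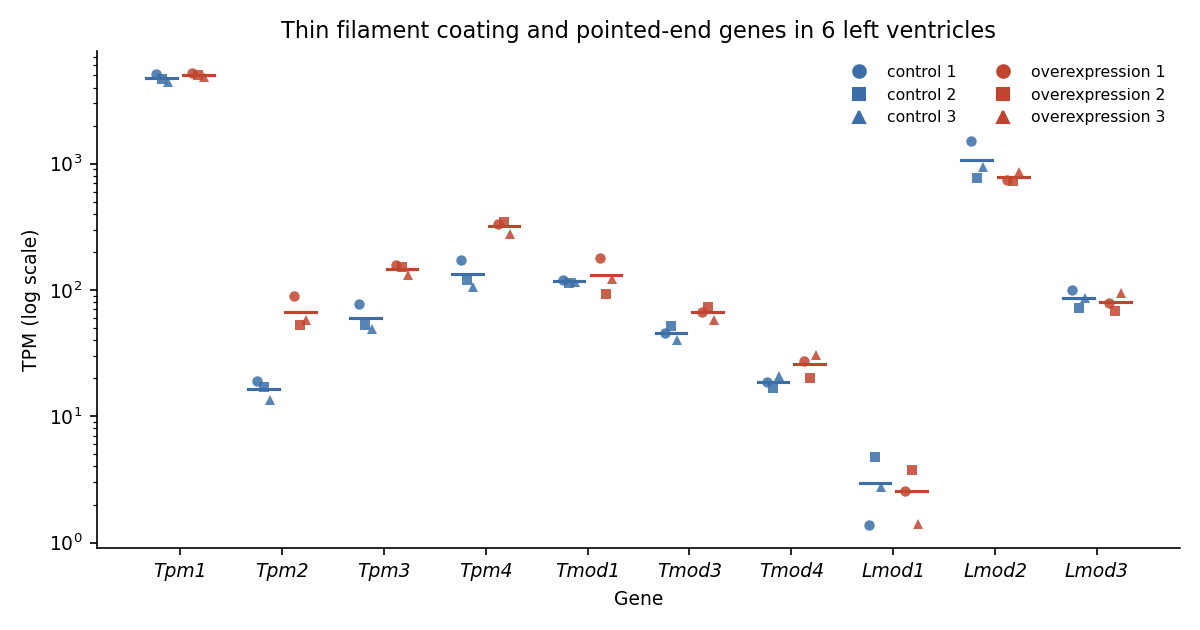
TPM on a log axis for the 10 genes in each of 6 libraries, with circles, squares and triangles for replicates 1 to 3 and short lines for the group means. The overexpression points of Tpm2, Tpm3, Tpm4 and Tmod3 lie above all 3 control points, and those of Tpm1, Lmod1 and Lmod3 overlap them.

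In 4 of 10 members, Tpm2, Tpm3, Tpm4 and Tmod3, 3 of 3 overexpression libraries lay above every control library, and in 0 members did all 3 lie below. Over all tested genes these shares were 62.1% and 10.4%.

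Tpm1 was by far the most abundant member. The control libraries held 5087, 4684 and 4420.5 TPM of it, and the overexpression libraries held 5178, 4986 and 4822 TPM. The groups overlapped, with means of 4730.4 ± 335 and 4996 ± 178 TPM (SD, n = 3 each). The log2 difference was 0.08 (SE 0.0901, limma adjusted p = 0.445). After rescaling it was -0.55 (SE 0.123, limma adjusted p = 0.00791), that is, Tpm1 lay below the middle of all genes. Its difference in deposited TPM was larger than that of 21.7% of the tested genes.

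Tpm2 encodes beta-tropomyosin, the form known from skeletal muscle and the fetal heart. Control libraries gave 19.1, 17.1 and 13.4 TPM, and overexpression replicates 1, 2 and 3 gave 88.8, 52.4 and 57.9 TPM. The lowest overexpression library was well above the highest control library, and overexpression replicate 1 was the highest of all. The log2 difference was 1.92 (SE 0.206, limma adjusted p = 0.000112), and 1.31 after rescaling (SE 0.214, limma adjusted p = 0.00177). Among the tested genes 97.2% had a smaller difference. The call held in all 15 alternatives, which varied the processing (other scalings included) or left out 1 library in deposited TPM.

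Tpm3, which gives both a slow-muscle tropomyosin and cytoskeletal forms, gave 77.9, 52.7 and 49.5 TPM in control ventricles. With overexpression it gave 156, 151 and 131 TPM. The log2 difference was 1.29 (SE 0.167, limma adjusted p = 0.000259), and 0.67 after rescaling (SE 0.171, limma adjusted p = 0.0134). Tpm4, a cytoskeletal tropomyosin of many cell types, went from 173, 120.5 and 105 TPM to 331, 346 and 276 TPM. Its log2 difference was 1.28 (SE 0.178, limma adjusted p = 0.000374), and 0.66 after rescaling (SE 0.176, limma adjusted p = 0.0170). For both genes control replicate 1 was the highest control library and the groups did not overlap. Both calls held in the same 15 alternatives. On the rescaled values, the Tpm3 call ended without control replicate 2 or 3 (limma adjusted p = 0.0526 and 0.0570), and the Tpm4 call ended without control replicate 2, control replicate 3 or overexpression replicate 2 (limma adjusted p = 0.0663, 0.0671 and 0.0511).

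**Figure D2:**
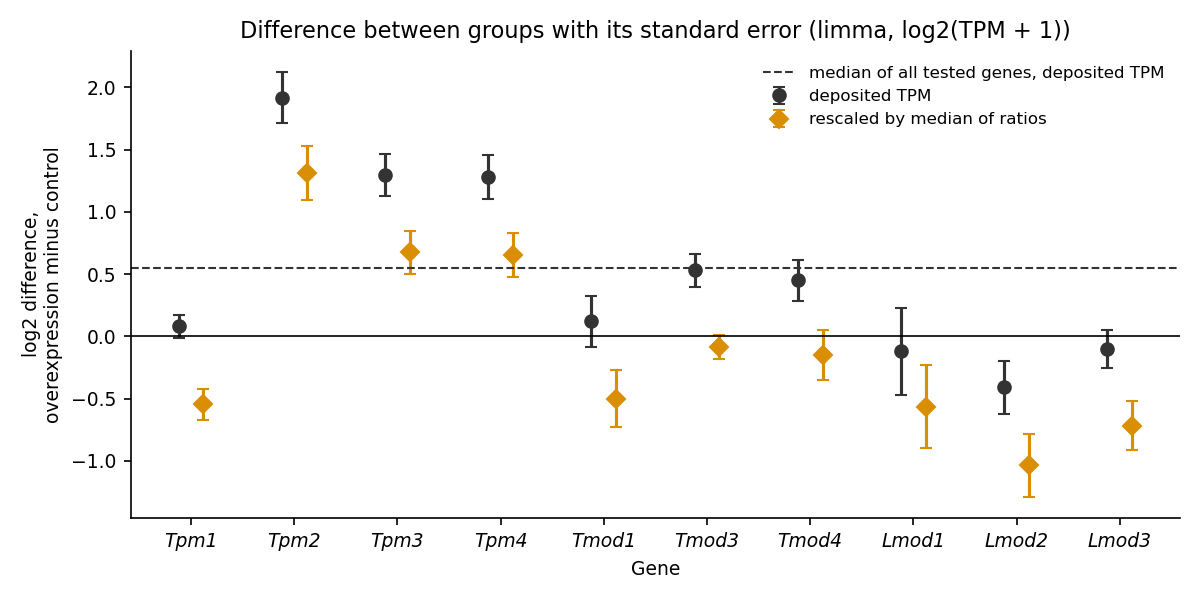
Log2 difference between groups with its standard error for each gene, in deposited TPM (circles) and after rescaling by median of ratios (diamonds), with the median of all tested genes in deposited TPM as a dashed line at 0.55. Tpm2, Tpm3 and Tpm4 lie above the dashed line, Tmod3 and Tmod4 near it, and the other 5 genes below it.

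Tpm3 and Tpm4 are expressed by many cell types, and markers of non-muscle cells moved in the same libraries. All 8 macrophage markers were called higher, also after rescaling, with summed TPM of 209 to 264 in the control group and 532 to 829 with overexpression. Fibroblast markers were called higher in 5 of 7 (summed TPM 469 to 607 and 861 to 1073), beside the 59% of all genes. After rescaling 3 were higher and 2 lower, beside 22.2% and 24% of all genes. Activated fibroblast markers were called higher in 4 of 6 on both scales (20.3 to 34.2 and 424 to 779 TPM), beside 59% and 22.2% of all genes. Of those 4, Cthrc1 and Tnc had control means below 1 TPM and passed the filter through the overexpression group, whereas Postn and Meox1 had control means above it. Most of the sum with overexpression was Postn (mean 478 TPM). Fap and Comp did not pass the test (limma adjusted p = 0.377 and 0.739). Endothelial markers were called in 0 of 7 (summed TPM 314 to 418 and 402 to 441), with 1 of 7 higher at an unadjusted p below 0.05 in limma, and 0 higher and 3 lower after rescaling. More cells of a type and more RNA per cell cannot be told apart in bulk tissue, and the part of these cells in the tropomyosin values was not tested.

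Because a share within one library does not move with the scaling of that library, the make-up of the tropomyosin pool was compared directly. Summed over the 4 genes, control libraries averaged 4940 ± 389 TPM and overexpression libraries 5526 ± 234 TPM (SD, n = 3 each). Tpm1 made up 95.0%, 96.1% and 96.4% of that sum in control ventricles, against 90.0%, 90.1% and 91.2% with overexpression. The share fell by 5.38 percentage points and was lower in 3 of 3 overexpression libraries. The Tpm2 share rose from 0.333% ± 0.0357 to 1.19% ± 0.311 (SD, n = 3 each), and was higher in 3 of 3. For both shares the exact permutation p, two-sided, was 0.1, the smallest that 3 against 3 allows, and 0.125 adjusted over the 5 ratios tested. Tpm3 went from 1.20% ± 0.217 to 2.64% ± 0.135 and Tpm4 from 2.66% ± 0.506 to 5.74% ± 0.515, given as values with no test.

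**Figure D3:**
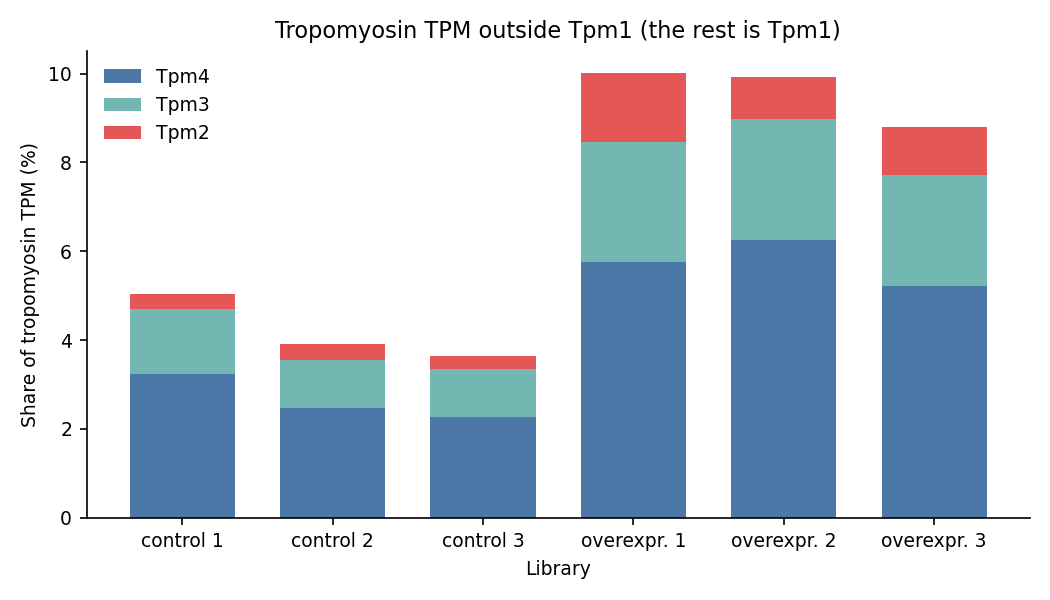
Stacked bars of the share of summed tropomyosin TPM taken by Tpm4, Tpm3 and Tpm2 in each of 6 libraries, with Tpm1 as the remainder. Each overexpression library has a taller bar than each control library, and Tpm4 is the largest segment in all 6.

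The sequences just upstream of the 4 tropomyosin genes are shown because Tpm2, Tpm3 and Tpm4 rose together and Tpm1 did not. They are RefSeq windows on GRCm38.p6 from 250 bases before to 10 bases after the annotated start, printed 5′ to 3′. Capitals mark the CAGCTG form of the E-box (the same on both strands) or an M-CAT element (CATTCC, or GGAATG on the other strand). Other forms of the E-box (CANNTG) were neither searched nor marked, and the Tpm1 window holds such a form (caactg).
Tpm1, chr9:67049204-67049463, minus strand: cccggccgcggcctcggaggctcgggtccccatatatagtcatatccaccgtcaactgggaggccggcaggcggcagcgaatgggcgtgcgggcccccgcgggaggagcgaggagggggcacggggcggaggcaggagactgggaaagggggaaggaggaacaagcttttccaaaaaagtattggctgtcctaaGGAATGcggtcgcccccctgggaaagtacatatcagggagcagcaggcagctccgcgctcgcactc
Tpm2, chr4:43523545-43523804, minus strand: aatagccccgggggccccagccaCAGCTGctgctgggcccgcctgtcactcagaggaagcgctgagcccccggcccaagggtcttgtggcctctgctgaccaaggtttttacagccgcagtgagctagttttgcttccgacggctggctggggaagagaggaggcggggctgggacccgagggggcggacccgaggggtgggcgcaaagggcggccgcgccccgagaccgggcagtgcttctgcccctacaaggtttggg
Tpm3, chr3:90072401-90072660, plus strand: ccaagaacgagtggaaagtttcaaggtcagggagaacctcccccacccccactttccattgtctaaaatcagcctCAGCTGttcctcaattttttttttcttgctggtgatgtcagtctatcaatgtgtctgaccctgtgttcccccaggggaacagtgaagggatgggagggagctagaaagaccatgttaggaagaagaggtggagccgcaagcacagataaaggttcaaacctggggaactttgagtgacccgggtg
Tpm4, chr8:72135038-72135297, plus strand: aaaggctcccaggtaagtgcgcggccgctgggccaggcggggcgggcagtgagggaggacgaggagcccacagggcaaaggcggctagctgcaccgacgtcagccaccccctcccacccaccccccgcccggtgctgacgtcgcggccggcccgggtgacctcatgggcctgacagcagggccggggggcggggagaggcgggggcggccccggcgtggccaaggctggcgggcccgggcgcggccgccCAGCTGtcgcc
Windows of 300 bases, to 50 bases after the start, were found for 8 members. They were searched on both strands for CAGCTG, the M-CAT element, the CArG box, the MEF2 site and the TATA box (TATAAA). An E-box was found for 5 members (Tpm2, Tpm3, Tpm4, Lmod1 and Lmod2) and an M-CAT element for 3 (Tpm1, Tmod1 and Lmod1), against 16.3% and 14.66% of 32851 windows of the same length. Of those with an E-box, Lmod1 and Lmod2 did not rise in deposited TPM (log2 difference -0.12 and -0.41). Whether any motif bears on the differences between groups was not tested. The CArG box, the MEF2 site and the TATA box were found in 0 of the 9 member windows, against 1.63%, 0.56% and 13.62% of all windows. Tpm3 has a second annotated start whose window held none of the 5 motifs. GENCODE M21 lists 16 protein-coding transcripts of Tpm1, 4 of Tpm2, 7 of Tpm3 and 1 of Tpm4, each with its own start in that annotation, and gene totals do not show which of them was used.

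Among the capping genes Tmod3 and Tmod4 passed the test in deposited TPM, Tmod1 did not, and 0 of the 3 passed after rescaling. For Tmod1 the control values were 121, 114 and 116 TPM, and overexpression replicates 1, 2 and 3 gave 179.7, 93.4 and 122 TPM. The overexpression libraries lay on both sides of the control libraries. The log2 difference was 0.12 (SE 0.202, limma adjusted p = 0.609) and -0.50 after rescaling (SE 0.228, limma adjusted p = 0.109). Without overexpression replicate 1, the library with Y-linked transcripts, the difference turned to -0.13 (limma adjusted p = 0.385), and on the rescaled values it was then called lower (-0.74, limma adjusted p = 0.0130). Markers of red cells, which also express Tmod1, summed to 777 to 1174 TPM in the control group and 741 to 1808 TPM with overexpression, with 0 of 5 called in limma and 0 at an unadjusted p below 0.05. In GENCODE M21 the exons of Tmod1 share 1287 bases with the antisense gene Tstd2 (2.83 to 7.21 TPM over the 6 libraries), and those of Tpm4 share 134 bases with the antisense Gm26586 (0.0854 to 0.971 TPM).

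Tmod3, the tropomodulin of most non-muscle cells, read 45.7, 51.5 and 39.9 TPM without overexpression and 67.3, 73.8 and 57.8 TPM with it. The groups did not overlap, and the log2 difference was 0.53 (SE 0.130, limma adjusted p = 0.00644). That is close to the 0.55 of all genes, and after rescaling the difference was -0.09 (SE 0.0950, limma adjusted p = 0.492). Tmod4, best known from skeletal muscle, stood at 18.5, 16.6 and 20.7 TPM and at 27.3, 20.1 and 30.7 TPM, with overexpression replicate 2 inside the control range. Its log2 difference was 0.45 (SE 0.165, limma adjusted p = 0.0371) and -0.15 after rescaling (SE 0.201, limma adjusted p = 0.580). The Tmod4 call ended without control replicate 1 or 2 or overexpression replicate 1 or 3, at limma adjusted p of 0.0696, 0.113, 0.0930 and 0.116. With the mitochondrially encoded genes removed from the total, neither Tmod3 nor Tmod4 passed (limma adjusted p = 0.0736 and 0.436), and Tmod4 also missed the threshold with no filter on low values (limma adjusted p = 0.0725). Tmod2, the neural relative outside the 10 members, was at 2.10 ± 0.501 and 2.80 ± 0.531 TPM (SD, n = 3 each, limma adjusted p = 0.195).

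Tmod4, Lmod3 and Tpm2 are also genes of skeletal muscle. The summed TPM of 12 skeletal muscle markers went from 4.61 to 6.74 in the control group to 239 to 350 with overexpression, most of it from Tnnt3. The 3 that passed the filter, Tnnt3, Mylpf and Tnni2, were called higher on both scales, beside 59% and 22.2% of all genes. Tnnt3 had a control mean of 0.686 TPM and passed through the overexpression group. Below the filter and not tested were Pvalb (0.902 and 0.486 TPM in the control and overexpression groups) and Atp2a1 (0.182 and 0.190 TPM). So were Actn3 (0.0644 and 0.134 TPM), Myh1 (0.0202 and 0.00282 TPM) and Myh2 (0.00544 and 0.00932 TPM). The fast light chain gene Mylpf went from 1.42 ± 0.526 to 11.7 ± 3.42 TPM and the fast troponin gene Tnni2 from 2.31 ± 1.08 to 11.2 ± 5.56 TPM (SD, n = 3 each, limma adjusted p = 7.77e-05 and 0.00136). The fast myosin gene Myh4, the troponin gene Tnnc2 and the muscle determination gene Myod1 were at 0 in all 6 libraries, and Myog was at 0 in 5 of them and at 0.0204 TPM in overexpression replicate 3. Whether these transcripts share a source with the members was not tested.

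Leiomodin transcripts came almost wholly from Lmod2, which held 92.0% ± 1.51 of the summed leiomodin TPM in the control group and 90.4% ± 0.629 with overexpression (SD, n = 3 each). Its control libraries held 1512, 775 and 936 TPM, and its overexpression libraries 745, 732 and 856 TPM. Control replicate 1 was far above the rest, and overexpression replicate 3 lay within the control range. The log2 difference was -0.41 (SE 0.215, limma adjusted p = 0.119), and -1.04 after rescaling (SE 0.251, limma adjusted p = 0.0111). In deposited TPM the difference was -0.13 without control replicate 1 (limma adjusted p = 0.357) and -0.62 without control replicate 2, where it was called (limma adjusted p = 0.0235). On the rescaled values it was called lower with each of the 6 libraries left out in turn (-1.29 to -0.76).

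Lmod3, a leiomodin of skeletal and heart muscle that is lost in a form of nemaline myopathy, read 99.97, 71.9 and 87.0 TPM in control ventricles. With overexpression it read 78.6, 67.8 and 94.9 TPM. The groups overlapped almost fully. The log2 difference was -0.10 (SE 0.155, limma adjusted p = 0.578) and -0.72 after rescaling (SE 0.197, limma adjusted p = 0.0184). Leaving out 1 library on the rescaled values kept that call in 3 of 6 cases. Lmod1, the smooth muscle leiomodin, was at 1.37, 4.78 and 2.76 TPM and at 2.54, 3.73 and 1.40 TPM, from an estimated 109 to 535 reads per library. Its SD within each group was larger than the difference between the group means (log2 difference -0.12, SE 0.350, limma adjusted p = 0.771). After rescaling the difference was -0.56 (SE 0.335, limma adjusted p = 0.206), and without control replicate 1 it was then called lower (-0.92, limma adjusted p = 0.0312). Smooth muscle and pericyte markers summed to 522 to 654 TPM in the control group and 585 to 646 TPM with overexpression, with 4 of 9 tested called higher and 1 lower, beside 59% and 9.09% of all genes. After rescaling 2 were higher and 4 lower (median log2 difference -0.38), beside 22.2% and 24% of all genes.

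The balance of leiomodins to tropomodulins was taken within each library as the ratio of their summed TPM. Control libraries gave ratios of 8.73, 4.69 and 5.80, and overexpression libraries 3.01, 4.29 and 4.53, with means of 6.41 ± 2.09 and 3.94 ± 0.817 (SD, n = 3 each). All 3 overexpression libraries lay below the control libraries, although 4.53 and 4.69 are close neighbours. The log2 ratio differed by -0.67 (exact two-sided permutation p = 0.1, the smallest possible, and 0.125 adjusted over the 5 ratios). Without control replicate 1 the difference was -0.43. For Lmod2 to Tmod1 alone the control ratios were 12.5, 6.82 and 8.05, and the overexpression ratios 4.14, 7.84 and 7.03. Those groups overlapped, and the log2 difference of -0.53 had an exact permutation p of 0.4 (0.4 adjusted over the 5 ratios). It was -0.28 without control replicate 1 and -0.25 without overexpression replicate 1.

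Tropomyosin was also set against the sarcomeric actin genes Acta1 and Actc1, whose product it covers. Summed tropomyosin TPM divided by Acta1 plus Actc1 TPM came to 0.576, 0.585 and 0.643 in control ventricles, and to 0.302, 0.356 and 0.316 with overexpression. The means were 0.601 ± 0.0360 and 0.325 ± 0.0281 (SD, n = 3 each), and the groups were far apart. The log2 ratio differed by -0.89, lower in 3 of 3 overexpression libraries (exact two-sided permutation p = 0.1, the smallest possible, and 0.125 adjusted over the 5 ratios). In deposited TPM Acta1, skeletal muscle actin, rose 34.7-fold and Actc1, cardiac actin, rose 1.43-fold, while the tropomyosin sum went from 4940 to 5526 TPM. The Actc1 log2 difference of 0.51 was near the 0.55 of all genes, and after rescaling it was -0.11 (limma adjusted p = 0.653). That of Acta1 was 4.67 after rescaling (limma adjusted p = 6.81e-05).

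**Figure D4:**
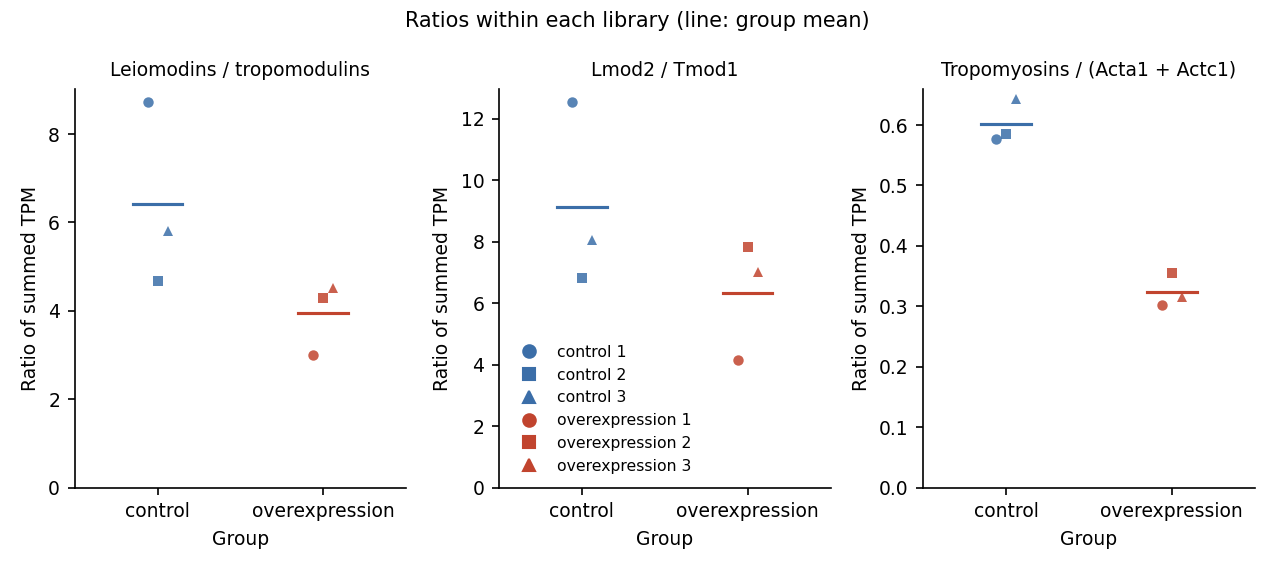
Ratios of summed TPM within each library, as points by group with a line at the group mean: leiomodins to tropomodulins, Lmod2 to Tmod1, and tropomyosins to Acta1 plus Actc1. The tropomyosin to actin ratio is 0.576 to 0.643 for control and 0.302 to 0.356 for overexpression, whereas the groups overlap for Lmod2 to Tmod1.

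By level, the control order was Tpm1, Lmod2, Tpm4, Tmod1, Lmod3, Tpm3, Tmod3, Tmod4, Tpm2 and Lmod1. The ranges over libraries overlapped between Tpm4 and Tmod1, Lmod3 and Tpm3, Tpm3 and Tmod3, and Tmod4 and Tpm2. In the overexpression group Tpm3 ranked 4 and Tpm2 ranked 7 of 10, with Tpm2 and Tmod3 nearly level (means of 66.4 and 66.3 TPM). There the ranges overlapped along the run from Tpm3 through Tmod1, Lmod3 and Tpm2 to Tmod3. The coefficient of variation within a group ran from 3.03% for Tmod1 in the control group to 57.7% for Lmod1 in the control group. Lmod2 varied by 36.1% among the control libraries and by 8.79% among the overexpression libraries.

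The other genes of the thin filament were taken from lists of actins, troponins, anchoring and assembly genes. Of 6 actin genes 4 were called higher and 0 lower (median log2 difference 0.82), among them Actb, cytoplasmic actin, at 207 ± 60.5 and 619 ± 123 TPM. Of 7 troponin genes tested 5 were higher and 2 lower (median 1.83), led by Tnnt3, Tnnt1 and Tnni1, the skeletal and slow forms, which rose 385-fold, 28.2-fold and 19.0-fold. Tnni1 and Tnnt3 had control means below 1 TPM and passed the filter through the overexpression group. Of 10 barbed-end capping and Z-disc anchoring genes 8 were higher and 1 lower (median 1.04), with Xirp2, Nrap and Capza1 rising 9.04-fold, 2.52-fold and 2.54-fold. After rescaling these 3 lists had 2 higher and 1 lower, 4 higher and 2 lower, and 5 higher and 1 lower. Of all genes 22.2% were then higher and 24% lower. The members with Tmod2 had a median of 0.29 and 5 of 11 higher, beside the 0.55 and 59% of all genes.

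Of 16 actin assembly and severing genes 11 were higher and 3 lower (median 1.15), beside 59% and 9.09% of all genes. After rescaling 10 were higher and 4 lower, beside 22.2% and 24% of all genes. Fhod3, a formin that builds actin in cardiac sarcomeres, fell from 109.95 ± 4.48 to 12.5 ± 3.39 TPM (SD, n = 3 each, limma adjusted p = 9.73e-06), the smallest p of this list. Tmsb10, which binds actin monomers, rose 4.17-fold and the severing protein gene Cfl2 rose 2.48-fold. Of the Kelch-protein genes, Klhl40, whose product binds and stabilises nebulin and leiomodin 3, rose from 10.4 ± 0.810 to 151 ± 24.0 TPM and Klhl41 from 60.2 ± 3.91 to 178 ± 38.1 TPM (SD, n = 3 each), while Klhl31 did not pass the test (22.0 and 19.8 TPM, limma adjusted p = 0.316). Lmod3 was at 86.3 ± 14.0 and 80.4 ± 13.6 TPM beside them. Of 9 genes tested around the actin-regulated factor SRF, 6 were higher and 1 lower in deposited TPM, and 1 was higher and 3 lower after rescaling. The shares of all genes are those given above, 59% and 9.09%, and 22.2% and 24%. In deposited TPM the SRF coactivator Myocd rose 2.21-fold, Mef2d rose 1.43-fold and the cofactor Fhl2 fell to 0.318 of its control mean. After rescaling the log2 differences were 0.51 for Myocd, -0.11 for Mef2d and -2.28 for Fhl2 (limma adjusted p = 0.0223, 0.467 and 1.59e-05).

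**Figure D5:**
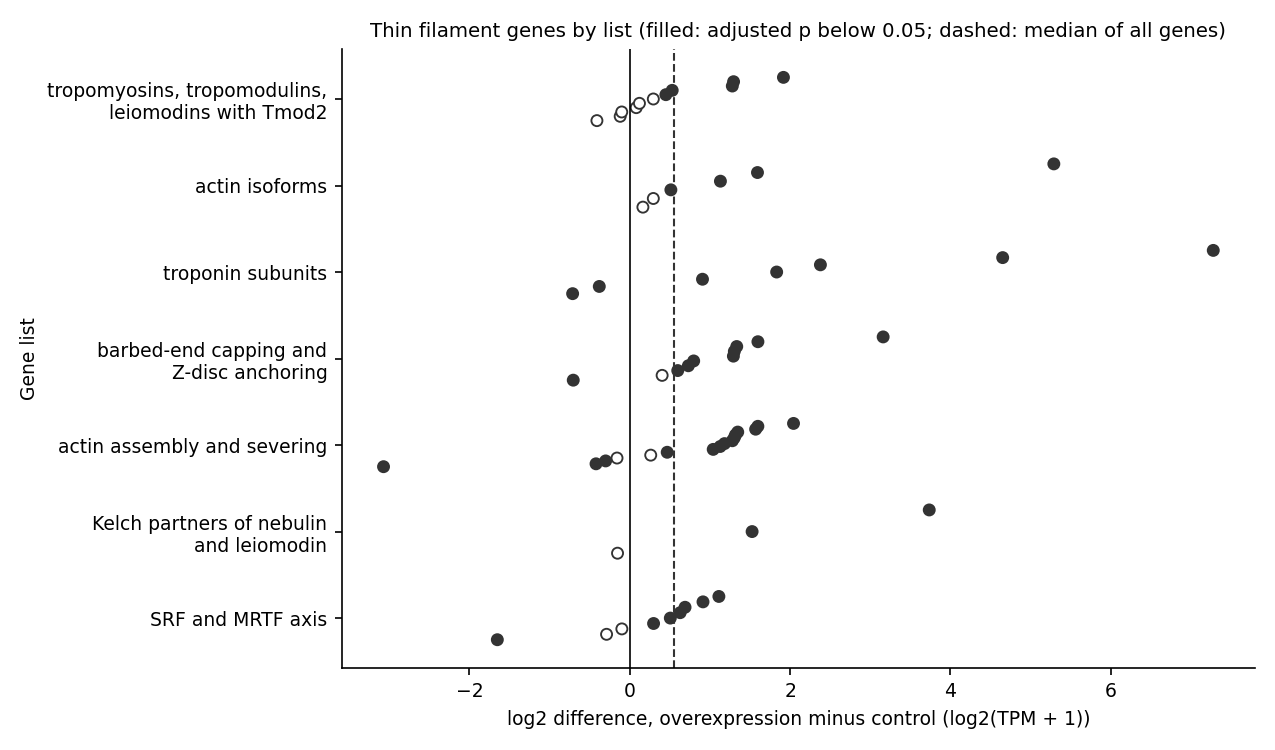
Log2 differences between groups in deposited TPM for the tested genes of 7 thin filament lists, 1 point a gene, filled where the limma adjusted p was below 0.05, with a dashed line at the median of all tested genes (0.55). The members lie between -0.41 and 1.92, whereas actin, troponin and assembly genes reach from -3.07 to 7.28.

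Likeness to other genes was measured as the root mean square difference, over the 6 libraries, of log2(TPM + 1) minus its control mean. Nearest to Tpm1 were Gnptg, Cyp2j9 and Hspe1 (0.0421, 0.0422 and 0.0427). Their control means were 6.47, 1.01 and 175 TPM, and the log2(TPM + 1) scale understates changes of low genes. Nearest to Tmod1 were Slk, Ddit3 and Mus81 (0.0721, 0.102 and 0.111). Nearest to Lmod2 were Gm15523, Papln and Mcpt4 (0.138, 0.151 and 0.162), all at a few TPM.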

How the data were processed

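RNA of 6 mouse left ventricles (3 control, 3 RBM20 overexpression, grouped by the genotype labels) was analysed from 1 table deposited by the authors, which holds TPM per gene symbol per the file headers. The submitters' processing notes name featureCounts 2.0.3, edgeR 3.40.2 and a genome build mm8. Which aligner, annotation and strand setting were used was not given in the sources used here, so antisense overlaps are uncertain. The labels do not state that samples are separate animals, and p-values measure the spread between these libraries, which may be technical. With 1 length per gene, a change in isoform can move TPM.

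Groups were compared on log2(TPM + 1) with limma 3.58.1 under R 4.3.3, using its moderated statistic with an intensity trend, for the 12404 genes whose mean reached 1 TPM. P-values are two-sided and Benjamini-Hochberg adjusted over those genes, with a threshold of 0.05. This scale understates changes of low genes, and folds are ratios of mean TPM. Rescaling by median of ratios used, for each library, the median over genes of its TPM relative to the gene's geometric mean. The 5 ratios within libraries were tested by exact permutation. Depth was estimated from steps of TPM times the exon length in GENCODE M21. Promoter windows are RefSeq's on GRCm38.p6, matched by symbol, and played no part in a test. The fit was tested on simulated data with as many genes raised as lowered and no shift of scale between groups. That simulation does not bear on the choice between deposited and rescaled values. The members, gene lists, markers and motifs were chosen with earlier results of these data known. Genes named by rule are the members, Tmod2, the 3 smallest p of each thin filament list and the 3 nearest genes of Tpm1, Tmod1 and Lmod2. Rbm20, Ddx3y and Xist served as label checks. Esr1, the single cell type markers, the genes overlapping members and those under other observations were named outside that rule. Alternatives were other pseudocounts, filters, scalings and limma settings and each library left out. Leaving out libraries after rescaling was added after seeing the data. Figures used Python 3.11.15 and matplotlib 3.10.9. Exon use was not analysed here.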

Additional observations from a re-analysis of the deposited data

How the results depend on the processing

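Direction and calls depended most on the scale. Against 7316 genes higher and 1127 lower in deposited TPM, median of ratios rescaling gave 2756 and 2974, quantile normalization gave 2963 higher and 2816 lower, and removing the mitochondrially encoded genes left 1718 lower. Among the 10 members, 5 were higher and 0 lower in deposited TPM. Rescaling gave 3 and 3, and removing mitochondrially encoded genes or quantile normalization each gave 3 and 1. Some log2 differences changed sign with the scale: Tpm1 to -0.55 (rescaled) and -0.20 (mitochondrially encoded genes removed), Tmod1 to -0.50, -0.16 and, by quantile normalization, -0.33, Tmod3 to -0.087 (rescaled), and Tmod4 to -0.15 (rescaled) and -0.085 (quantile).

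With each library left out in turn, members called lower ranged from 0 to 1 (Lmod2, without control replicate 2), and the log2 difference ranged from -0.13 to 0.34 for Tmod1, -0.45 to 0.20 for Lmod1 and -0.22 to 0.014 for Lmod3. On the rescaled values, in leave-outs chosen after seeing the data, members called higher ranged from 1 to 3 and Tmod4 from -0.32 to 0.076. The cause was not tested. The differences of Tpm2, Tpm3 and Tpm4 stayed above 0 in every alternative run, rescaled leave-outs included. The 5 ratios within libraries kept their direction under all alternatives run on them, but 3 libraries a group could not have taken them past the threshold. Lmod1 had no value at a filter of 5 TPM. Lmod1 rested on an estimated 109 to 535 reads a library and was called in 1 of the fits run, lower by rescaling without control replicate 1 (-0.92). No paired analysis was possible because the replicate numbers follow sample order and mark no shared source.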

Other observations

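Within the actin assembly and anchoring lists, some genes not described above were chosen with their values in view. Nebl, the cardiac nebulin relative, fell from 102.6 ± 1.76 to 62.8 ± 6.99 TPM (SD, n = 3 each, limma adjusted p = 0.000413), while nebulin itself (Neb) went from 0.616 ± 0.126 to 3.09 ± 1.19 TPM (limma adjusted p = 0.00101) and passed the filter through the overexpression group. Cobl, an actin nucleator, rose from 1.73 ± 0.413 to 5.23 ± 1.18 TPM (SD, n = 3 each, limma adjusted p = 0.00103). Wdr1 and Cfl1, which take actin filaments apart, rose 3.04-fold and 3.001-fold. Actg1, a cytoplasmic actin, was at 442 TPM in control replicate 1 against 141 and 147 TPM in the other control libraries. Control replicate 1 was also the highest control library for 7 of the 10 members (Tpm1, Tpm2, Tpm3, Tpm4, Tmod1, Lmod2 and Lmod3). The share of all tested genes for which it was the highest was not counted, so no trait of the members can be read from this.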
